A study of Mus musculus with 15 samples.

Results

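ATP-binding cassette (ABC) drug efflux transporters are membrane pumps that use ATP to export drugs and their conjugates from cells. The 9 mouse genes described here are Abcb1a and Abcb1b (P-glycoproteins), Abcc1 to Abcc6 (multidrug resistance-associated proteins) and Abcg2 (breast cancer resistance protein). Their rows were taken from the deposited table by gene symbol, and all 9 were found among its 21878 genes. RNA from mouse liver was selected by its poly(A) tail and sequenced, and levels are given in FPKM, fragments scaled to transcript length and to the library total. All animals were male C57BL/6J mice aged 8 weeks, killed 1 day after a single intraperitoneal dose. The control group received saline, in a volume that the labels do not state. Cisplatin, a platinum drug that crosslinks DNA, was given at 10 mg/kg from a 1 mg/mL solution in saline. Doxorubicin, an anthracycline that poisons topoisomerases, was given at 10 mg/kg from a 2 mg/mL solution in sterile water, so vehicle and drug cannot be told apart in that group. Each group held 5 libraries, labelled as separate mice. A note in the design text of the series says that doxorubicin information is missing, whereas the sample labels state the drug and its dose, and the sample labels were followed. The column of 1 doxorubicin library bears a number that no doxorubicin label has, and it is called the unnumbered doxorubicin library. The series title names hepatic IRE1α, a sensor of protein folding stress, and GDF15, a hormone that lowers food intake.

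In hepatocytes these pumps sit on opposite faces of the cell. P-glycoprotein, Abcc2 and Abcg2 lie in the canalicular membrane and export into bile, while Abcc3, Abcc4 and Abcc6 lie in the basolateral membrane and export toward the blood. Doxorubicin is a classical substrate of P-glycoprotein, and glutathione conjugates, the form in which some platinum leaves cells, are substrates of Abcc2. RNA levels were measured here, and neither protein, membrane location nor drug export was.

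The libraries differed in ways that touch every comparison with doxorubicin. The reads assigned to genes numbered 27.6 to 34.7 M (megareads) per saline library, 25.3 to 31 M in those of cisplatin and 37.6 to 50.7 M in those of doxorubicin, so the doxorubicin libraries were the deeper ones without overlap. Saline 2 stood apart within its group: 73% of the tested genes lay above or below all other saline libraries there, against 23.9% to 57% in the other 14 libraries. Differences from saline that moved most without saline 2 are given with and without it. Hepatocyte markers were abundant throughout, with Alb (albumin) at 38410 ± 5480 FPKM in the saline group, 38650 ± 903 in the cisplatin group and 33300 ± 4125 in the doxorubicin group (mean ± SD of 5). The summed level of the 11 hepatocyte markers in the table, of 12 listed, ran from 83857 to 90350 FPKM with saline, from 82055 to 90771 with cisplatin and from 75161 to 84258 with doxorubicin. Of these 11, tested as described below, 0 rose and 2 fell after cisplatin, and 2 rose and 3 fell after doxorubicin. The shares of all tested genes that rose and fell were 6.08% and 5% after cisplatin, and 14.4% and 17.2% after doxorubicin.

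The 9 genes spanned a wide range of levels in the saline livers. Abcc2 was the highest at 129 ± 15.9 FPKM, followed by Abcc6 at 105 ± 34.8, Abcc3 at 76.4 ± 4.63 and Abcg2 at 25.5 ± 1.69 (SD, n = 5 each). Abcc5 followed at 2.83 ± 1.20 FPKM. The remaining genes lay below 1 FPKM, with Abcc1 at 0.454 ± 0.103, Abcc4 at 0.438 ± 0.0991, Abcb1a at 0.347 ± 0.0703 and Abcb1b at 0.143 ± 0.103. The saline ranges of Abcc2 and Abcc6 overlapped, as did those of Abcc6 and Abcc3, while Abcc3, Abcg2, Abcc5 and Abcc1 followed each other without overlap. The lowest 4 genes overlapped their neighbours in that order. Levels between genes depend on the lengths behind the deposited FPKM, which the steps of the values put below the total exon length in GENCODE M21 for every one of the 9, for instance at 4344 against 7990 bases for Abcb1b, 5059 against 5480 for Abcb1a and 2256 against 8153 for Abcg2. Orders of genes and sums over genes would shift with other lengths, while comparisons of 1 gene between groups would not. After doxorubicin the upper part of the order was spread out: Abcc2 at 127 ± 10.8 FPKM, Abcc6 at 69.5 ± 11.2, Abcc3 at 40.7 ± 7.52 and Abcg2 at 24.9 ± 1.98 followed each other with no overlap. After cisplatin Abcc2 at 136 ± 34.8 FPKM and Abcc6 at 85 ± 15.3 overlapped by 1 library, and Abcc6 and Abcc3, at 59.8 ± 7.48, did not overlap.

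**Figure D1:**
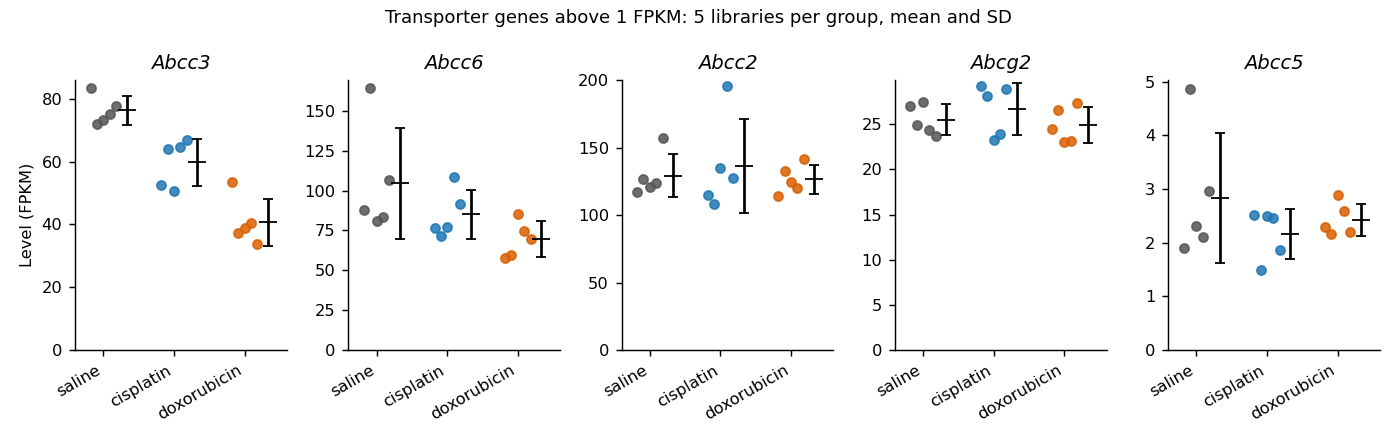
Level in FPKM (vertical axes, starting at 0) of the 5 transporter genes above 1 FPKM in saline, cisplatin and doxorubicin livers; each point is 1 library and the bars are mean and SD of 5. Abcc3 means are 76.4, 59.8 and 40.7 FPKM, while Abcc2 and Abcg2 keep overlapping groups; the high saline point of Abcc6 and of Abcc5 is saline 2.

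Of the 9 genes, 5 passed a filter of 1 FPKM in 5 or more of all 15 libraries (Abcc2, Abcc3, Abcc5, Abcc6 and Abcg2) and were tested among 10552 genes. The other 4 were tested in a second fit with no filter, over 17788 genes. A gene is said to have changed where the limma fit on log2(FPKM + 1) gave an adjusted p under 0.05 over all genes of its fit. After cisplatin compared with saline 0 of the 5 rose and 0 fell, where 6.08% of all tested genes rose and 5% fell. After doxorubicin compared with saline 0 of the 5 rose and 2 fell (Abcc3 and Abcc6), where 14.4% of all tested genes rose and 17.2% fell. Between doxorubicin and cisplatin 0 of the 5 were higher after doxorubicin and 1 was lower (Abcc3), where 9% of all tested genes were higher and 11.4% lower. In the fit with no filter Abcb1b rose after doxorubicin, where 9.91% of all genes in that fit rose. The comparisons share libraries, so the counts are not independent of each other. The median difference over all tested genes was -0.01, -0.04 and -0.02 in the order given.

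**Figure D2:**
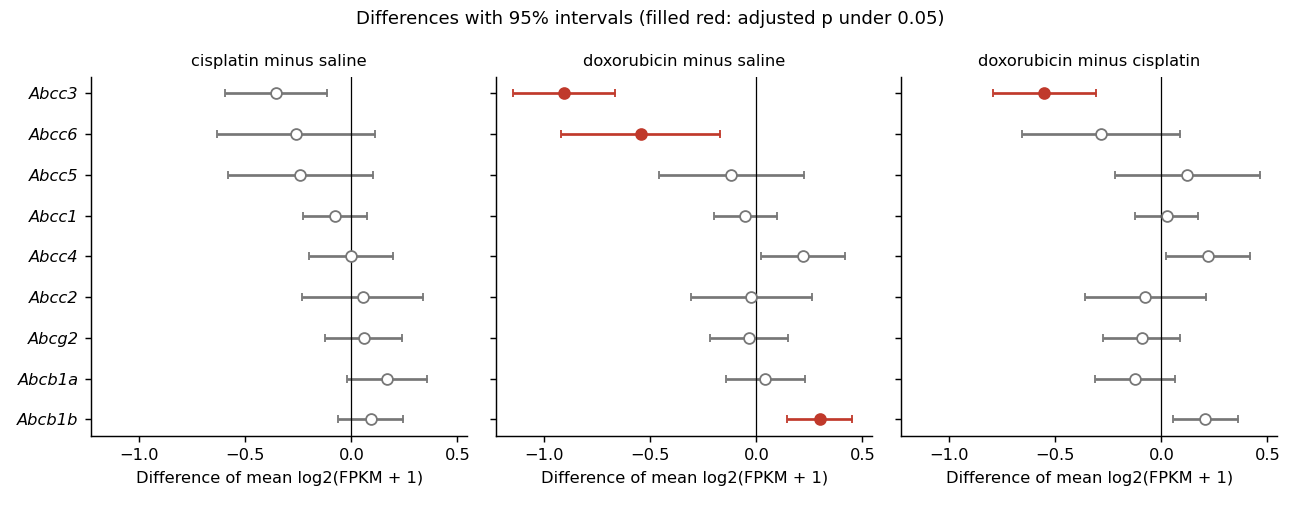
Difference of mean log2(FPKM + 1) with its 95% interval (horizontal axes) for the 9 transporter genes in each comparison; filled red points have an adjusted p under 0.05. The filled points are Abcc3 (-0.90), Abcc6 (-0.55) and Abcb1b (0.30) for doxorubicin minus saline, and Abcc3 (-0.55) for doxorubicin minus cisplatin.

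The basolateral exporter Abcc3 fell after doxorubicin, and its cisplatin levels lay between those of the other groups. Abcc3 (MRP3; chromosome 11, 94343295 to 94392997, minus strand, GRCm38) carries glucuronides, among them those of bilirubin, and bile acids from hepatocytes into the blood. Its levels in saline livers 1 to 5 were 83.6, 72.0, 73.2, 75.1 and 77.9 FPKM. In cisplatin livers 1 to 5 they were 52.7, 64.0, 50.8, 64.8 and 66.8 FPKM. In doxorubicin livers 1 to 4 they were 53.5, 37.2, 38.9 and 40.3 FPKM, and the unnumbered library was at 33.8. Every cisplatin and every doxorubicin library lay below every saline library, and doxorubicin 1 alone reached into the cisplatin range. Among all tested genes, 4.39% lay wholly below saline after cisplatin and 11.5% after doxorubicin.

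The mean level of Abcc3 fell by 46.6% from saline to doxorubicin, a difference of -0.90 ± 0.11 on the log2 scale (SE; 95% interval -1.15 to -0.66; limma adjusted p = 2.06e-05). The exact permutation p was 0.00794, the smallest that 5 against 5 libraries can give. Doxorubicin minus cisplatin was -0.55 ± 0.11 (limma adjusted p = 0.00253; exact permutation p = 0.0238). The cisplatin mean differed from the saline mean by -21.7%, on the log2 scale by -0.35 ± 0.11 (95% interval -0.59 to -0.11), and this missed the threshold (limma adjusted p = 0.0555), although the groups did not overlap and the exact permutation p was 0.00794. Of 25 alternative settings, 4 brought the limma adjusted p under 0.05. They were the fit of only the 2 groups compared (0.0391) and those without cisplatin 5 (0.0498), doxorubicin 1 (0.0215) or the unnumbered doxorubicin library (0.0432). In the other settings the limma adjusted p reached up to 0.151 (without cisplatin 3). Leaving out a doxorubicin library kept this difference and altered only its estimated spread. Without saline 2 the doxorubicin difference from saline was -0.93 (limma adjusted p = 2.74e-05). In a bulk sample, fewer cells of a type and less RNA per cell cannot be told apart.

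The basolateral gene Abcc6 also fell after doxorubicin, by less and with a wider spread. Abcc6 (MRP6; chromosome 7, 45967555 to 46030302, minus strand) is expressed mainly in liver, mediates release of ATP from hepatocytes, and is the gene mutated in pseudoxanthoma elasticum, a human disorder of ectopic mineralization. Its levels were 87.8, 164, 81.0, 83.7 and 107 FPKM in saline livers 1 to 5 and 76.3, 71.5, 77.1, 109 and 91.4 FPKM in cisplatin livers 1 to 5. Doxorubicin livers 1 to 4 were at 58.0, 59.9, 85.3 and 74.9 FPKM, with 69.5 in the unnumbered library. Saline 2 was the highest library, and 4 of the 5 doxorubicin libraries lay below every saline library.

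The mean level of Abcc6 fell by 33.6% from saline to doxorubicin, a difference of -0.55 ± 0.18 (95% interval -0.92 to -0.17; limma adjusted p = 0.0267; exact permutation p = 0.0238). Without saline 2 the difference was -0.37 (limma adjusted p = 0.047). The call ended without saline 5 (limma adjusted p = 0.0566), doxorubicin 1 (0.0659) or doxorubicin 2 (0.0663). The cisplatin difference from saline, -0.26 ± 0.18, and that between the drugs, -0.28 ± 0.18, did not pass the test (limma adjusted p = 0.386 and 0.292). Without saline 2 the cisplatin difference was -0.09 (limma adjusted p = 0.763).

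Some other genes followed nearly the same course over the 15 libraries, measured as the root mean square difference of log2(FPKM + 1) after each gene was centred on its own mean. Nearest to Abcc3 were Btg1 (0.144), an antiproliferative gene, Smim13 (0.146), a small membrane protein gene, and Pank1 (0.150), a pantothenate kinase of coenzyme A synthesis. Pank1 had means of 34.8, 25.5 and 17.4 FPKM with saline, cisplatin and doxorubicin. Nearest to Abcc6 were Taf4 (0.0879), a subunit of the general transcription factor TFIID, Inppl1 (0.101), a phosphoinositide phosphatase, and Mink1 (0.102), a protein kinase. Taf4 had means of 8.38 ± 3.21, 6.20 ± 1.03 and 5.51 ± 0.667 FPKM (SD, n = 5) in the same order, so that it too varied most among the saline livers.

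The abundant canalicular pumps Abcc2 and Abcg2 did not pass the test in any comparison. Abcc2 (MRP2; chromosome 19, 43782192 to 43840740, plus strand) exports conjugated bilirubin and glutathione and glucuronide conjugates of drugs into bile. Its levels were 117, 126, 121, 124 and 157 FPKM in saline livers 1 to 5, and 115, 108, 135, 196 and 128 FPKM in cisplatin livers 1 to 5. The doxorubicin livers 1 to 4 gave 114, 133, 125 and 119.9 FPKM, with 142 in the unnumbered library. All groups overlapped, and the 2 highest values were saline 5 and cisplatin 4. The difference from saline was 0.05 after cisplatin (95% interval -0.23 to 0.34; limma adjusted p = 0.85) and -0.02 after doxorubicin (95% interval -0.31 to 0.26; adjusted p = 0.916). After doxorubicin the 95% interval of Abcc3, -1.15 to -0.66, lay below that of Abcc2. The interval of Abcc6, -0.92 to -0.17, overlapped that of Abcc2, and no test compared the genes with each other.

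Abcg2 (chromosome 6, 58584523 to 58695676, plus strand) works as a dimer and exports urate, porphyrins, sulfated steroids and several anticancer drugs. Its levels were 27.1, 24.9, 27.5, 24.4 and 23.7 FPKM in saline livers 1 to 5, and 29.3, 28.1, 23.2, 23.9 and 29.0 FPKM in cisplatin livers 1 to 5. In doxorubicin livers 1 to 4 they were 24.4, 26.6, 23.0 and 23.2 FPKM, with 27.4 in the unnumbered library. All 15 libraries thus stayed between 23.0 and 29.3 FPKM. The differences from saline were 0.06 after cisplatin (95% interval -0.12 to 0.24; limma adjusted p = 0.724) and -0.03 after doxorubicin (95% interval -0.22 to 0.15; adjusted p = 0.797).

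Summed by membrane, the transcripts of the basolateral genes were lower after doxorubicin, while those of the canalicular genes overlapped in all groups. The 5 genes with basolateral products (Abcc1, Abcc3, Abcc4, Abcc5 and Abcc6) summed to 185 ± 34.3 FPKM in the saline livers, 148 ± 20.1 in the cisplatin livers and 114 ± 10.9 in the doxorubicin livers (mean ± SD of 5). Every doxorubicin sum, up to 128 FPKM, lay below the lowest saline sum of 158 and the lowest cisplatin sum of 131. The 4 canalicular genes (Abcb1a, Abcb1b, Abcc2 and Abcg2) summed to 155 ± 14.7, 164 ± 32.8 and 152 ± 12.4 FPKM in the same order. The ratio of Abcc3 to Abcc2 was 0.598 ± 0.0784 with saline, 0.456 ± 0.106 with cisplatin and 0.327 ± 0.0867 with doxorubicin. These sums and ratios are descriptions without a test, and they rest almost wholly on Abcc2, Abcc3, Abcc6 and Abcg2. Among the basolateral genes only Abcc3 and Abcc6 fell after doxorubicin. Abcc1, Abcc4 and Abcc5 did not pass the test, and the mean of Abcc4 was 0.438 FPKM after saline and 0.688 after doxorubicin. The highest saline sum, 242 FPKM, was that of saline 2, and the other 4 saline libraries lay between 158 and 188.

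**Figure D3:**
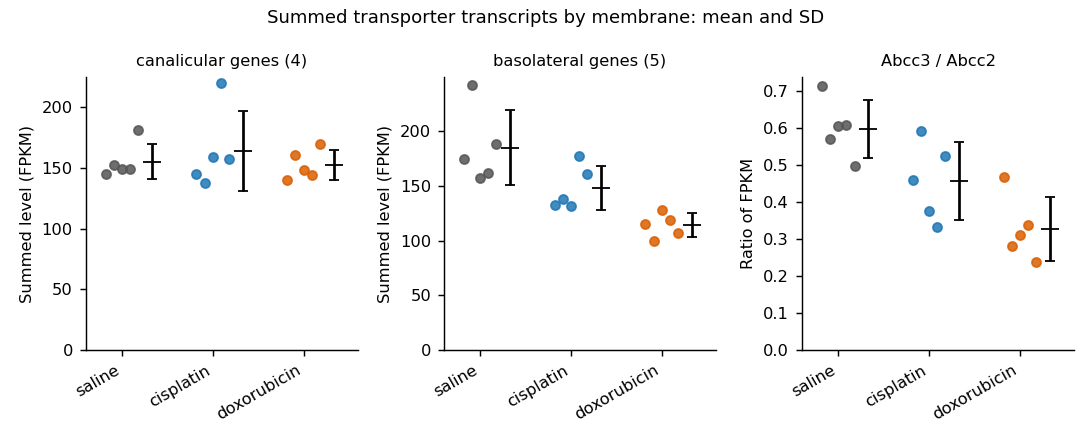
Summed FPKM of the 4 canalicular and the 5 basolateral transporter genes, and the ratio of Abcc3 to Abcc2 FPKM (vertical axes, starting at 0); each point is 1 library and the bars are mean and SD of 5. The canalicular sum overlaps in all groups, and the basolateral sum runs from 185 FPKM after saline to 114 after doxorubicin.

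Reads of the P-glycoprotein genes Abcb1a and Abcb1b can be told apart only where their sequences differ. Both lie on the plus strand of chromosome 5 of GRCm38, Abcb1a from 8660077 to 8748575 and Abcb1b from 8798147 to 8866315, and together they do the work of the human ABCB1 gene. Their coding sequences (GENCODE release M21) were aligned, and 3360 of 3819 aligned bases, or 88%, were identical. The longest identical run was 338 bases, within which a short read fits both genes, so both levels are uncertain to the extent that the counting split such reads. It begins at coding base 1357 of Abcb1a (counted from 1 at the start codon) with the 90 bases shown here because no read within them can separate the genes.
Abcb1a and Abcb1b: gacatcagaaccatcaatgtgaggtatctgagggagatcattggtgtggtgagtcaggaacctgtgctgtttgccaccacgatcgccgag
The window of 90 bases in which they differ most is shown for each gene because reads there do separate them. It spans coding bases 1883 to 1972 of Abcb1a and 1892 to 1981 of Abcb1b, and capitals mark the 29 differing bases.
Abcb1a: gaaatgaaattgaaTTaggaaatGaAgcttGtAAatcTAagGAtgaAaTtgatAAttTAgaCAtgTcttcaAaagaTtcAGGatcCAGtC
Abcb1b: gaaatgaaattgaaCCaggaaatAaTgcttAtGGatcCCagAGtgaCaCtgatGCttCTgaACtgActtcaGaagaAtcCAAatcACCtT
The next longest identical runs were 110 bases between Abcb1a and Abcb4, the phosphatidylcholine exporter of bile, and 98 bases between Abcb1b and Abcb4. No other pair among the 9 genes and Abcb4 shared more than 23 bases.

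Abcb1b, the P-glycoprotein gene known in rodent liver as the inducible copy, rose after doxorubicin from a very low level. Its levels were 0.121, 0.319, 0.0752, 0.139 and 0.0612 FPKM in saline livers 1 to 5, and 0.340, 0.267, 0.113, 0.219 and 0.142 FPKM in cisplatin livers 1 to 5. Doxorubicin livers 1 to 4 were at 0.549, 0.469, 0.233 and 0.380 FPKM, with 0.398 in the unnumbered library. Doxorubicin libraries were the highest, apart from doxorubicin 3, which lay below saline 2 and inside the cisplatin range. These values rest on 8 to 39 reads per saline library, 14 to 41 per cisplatin library and 51 to 121 per doxorubicin library.

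The mean level of Abcb1b after doxorubicin was 2.84 times the saline mean. On the log2(FPKM + 1) scale, which shrinks changes of low genes, the difference was 0.30 ± 0.07 (95% interval 0.15 to 0.45; limma adjusted p = 0.00806; exact permutation p = 0.0159). The call held in 15 of 15 fits that left out 1 library, with limma adjusted p from 0.00167 (without saline 2) to 0.0245. The fits without a cisplatin library kept the same difference, and only its estimated spread changed. Without saline 2 the difference was 0.35. The cisplatin difference from saline, 0.09, did not pass the test (limma adjusted p = 0.554). Doxorubicin exceeded cisplatin by 0.21 ± 0.07, which missed the threshold (limma adjusted p = 0.0728). Of 23 alternative settings, 3 passed it, namely those without saline 2 (0.0338), cisplatin 1 (0.0496) or doxorubicin 3 (0.0309). In the other settings the limma adjusted p reached up to 0.164 (without cisplatin 3). Leaving out saline 2 kept this difference and altered only its estimated spread.

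**Figure D4:**
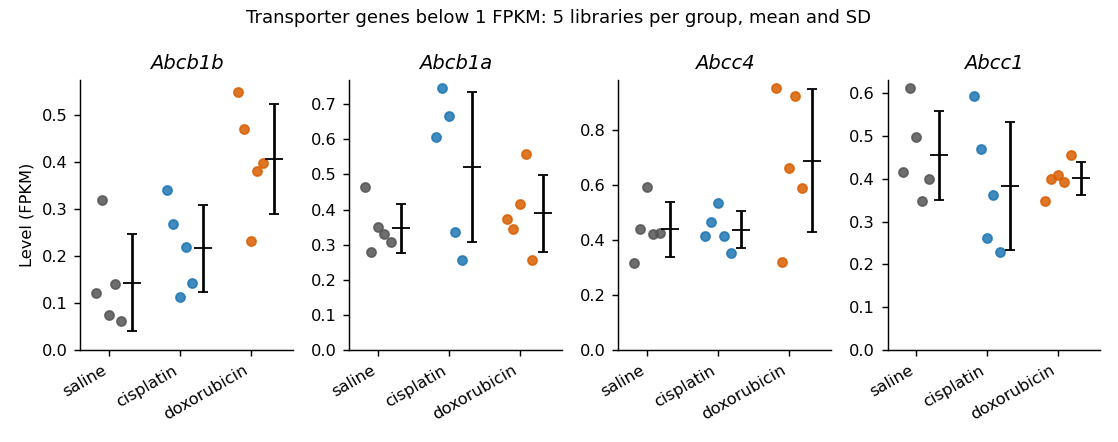
Level in FPKM (vertical axes, starting at 0) of the 4 transporter genes below 1 FPKM in saline, cisplatin and doxorubicin livers; each point is 1 library and the bars are mean and SD of 5. Abcb1b goes from a mean of 0.143 FPKM after saline to 0.406 after doxorubicin, and the doxorubicin points of Abcc4 are spread from 0.318 to 0.950.

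The 250 bases before the start of Abcb1b (RefSeq, GRCm38.p6, chr5:8797897-8798146, plus strand) are shown because this was the transporter gene that rose. Capitals mark motif matches.
Abcb1b: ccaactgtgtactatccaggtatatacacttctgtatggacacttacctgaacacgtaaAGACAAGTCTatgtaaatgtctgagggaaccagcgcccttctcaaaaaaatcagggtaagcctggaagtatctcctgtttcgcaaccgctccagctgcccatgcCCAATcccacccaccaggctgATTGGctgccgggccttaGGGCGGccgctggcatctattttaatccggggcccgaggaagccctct
Both strands were searched, and no 2 matches overlapped. A CCAAT box (CCAAT) lay 87 to 83 bases before the start and another, on the minus strand, 66 to 62 bases before it. A GC box (GGGCGG) lay 48 to 43 bases before the start. A match to the p53 half-site consensus lay 191 to 182 bases before it. Among 32841 RefSeq windows of the same length, 33.9% held CCAAT, 32.7% GGGCGG and 7.13% a p53 half-site match. The letters TATAAA, the antioxidant response element core TGACNNNGC and the NF-kB consensus had no match in this window, and 12.4%, 10.2% and 7.25% of all windows held them. Matches of this kind are descriptions of letters and show no binding.

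Abcb1a, the copy known for its place in the blood-brain barrier and gut, passed the test in no comparison. Its levels were 0.463, 0.281, 0.351, 0.330 and 0.309 FPKM in saline livers 1 to 5, and 0.606, 0.745, 0.666, 0.337 and 0.257 FPKM in cisplatin livers 1 to 5. The doxorubicin livers 1 to 4 gave 0.374, 0.344, 0.415 and 0.557 FPKM, with 0.256 in the unnumbered library. Cisplatin 1, 2 and 3 were the highest 3 libraries, and cisplatin 5 lay below all saline libraries. The difference from saline was 0.17 ± 0.09 after cisplatin (95% interval -0.02 to 0.35; limma adjusted p = 0.324) and 0.04 ± 0.09 after doxorubicin (adjusted p = 0.784). On average Abcb1a exceeded Abcb1b after saline (0.347 against 0.143 FPKM) and after cisplatin (0.522 against 0.216), and their means were 0.389 and 0.406 FPKM after doxorubicin.

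Cells other than hepatocytes also express these pumps, and their markers moved with doxorubicin. Of the 12 neutrophil markers 3 were tested, and all 3 rose after doxorubicin; the summed level of the 12 ran from 5.21 to 9.28 FPKM with saline, from 3.43 to 10.2 with cisplatin and from 27.3 to 42.2 with doxorubicin. S100a9, a calcium-binding protein abundant in neutrophils, led the list at 2.20 ± 0.506, 2.56 ± 1.27 and 14.7 ± 2.73 FPKM (SD, n = 5 each). Of the 5 tested monocyte markers, among 10 listed, 5 rose, and the summed level of the 10 went from 17.6 to 38.0 FPKM after saline to 39.2 to 77.1 after doxorubicin. A marker could pass the filter through the 5 libraries of 1 group alone, so counts of tested markers may favour those high in that group. Of the 11 tested Kupffer cell markers, among 12 listed, 7 rose and 1 fell, with sums of 97.6 to 163 FPKM after saline, 113 to 150 after cisplatin and 174 to 272 after doxorubicin. Endothelial markers fell in part after both drugs, 3 of 13 after cisplatin and 6 of 13 (with 1 rise) after doxorubicin, with sums of 72.5 to 106, 32.1 to 72.7 and 43.5 to 77.6 FPKM. None of these markers was at 0 in every library. Over all tested genes 6.08% rose and 5% fell after cisplatin, and 14.4% rose and 17.2% fell after doxorubicin. The part of these cells in the levels of Abcb1b and of the other low transporter genes was not tested.

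Cholangiocytes, the cells of the bile ducts, had marker sums of 35.6 to 56.2 FPKM after saline, 46.0 to 95.3 after cisplatin and 46.2 to 65.8 after doxorubicin, with 1 of 5 tested markers higher after each drug. Stellate cell and fibroblast sums overlapped in all groups (136 to 221, 136 to 211 and 114 to 162 FPKM), as did those of B and T lymphocytes (8.27 to 13.8, 7.37 to 9.49 and 7.35 to 10.0 FPKM). Among tested lymphocyte markers 1 of 5 fell after cisplatin and 3 of 5 after doxorubicin. Among stellate cell markers 1 of 12 and 2 of 12 fell, near the shares of all tested genes that fell, 5% and 17.2%. The shares of all tested genes that rose were 6.08% after cisplatin and 14.4% after doxorubicin. Erythroid markers fell after each drug in 4 of 5 tested, and their sums were 311 to 513 FPKM after saline, 35.5 to 56.1 after cisplatin and 44.5 to 276 after doxorubicin. Their part in the transporter levels was not tested.

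Abcc4 and Abcc1, low in liver under all conditions, did not pass the test. Abcc4 (MRP4; chromosome 14, 118482692 to 118706219, minus strand) exports cyclic nucleotides, prostaglandins and, together with glutathione, bile acids, and is known to rise in cholestasis. It stood at 0.315, 0.439, 0.592, 0.421 and 0.423 FPKM in saline livers 1 to 5, and at 0.412, 0.465, 0.533, 0.416 and 0.354 FPKM in cisplatin livers 1 to 5. In doxorubicin livers 1 to 4 it stood at 0.950, 0.318, 0.661 and 0.922 FPKM, with 0.587 in the unnumbered library. Doxorubicin 1, 3 and 4 lay above all saline and cisplatin libraries, and doxorubicin 2 lay near the bottom of them. The difference between doxorubicin and saline was 0.22 ± 0.09 (limma adjusted p = 0.115; exact permutation p = 0.103). Without doxorubicin 2 it was 0.30 (limma adjusted p = 0.0122), and that between the drugs passed the threshold as well (adjusted p = 0.0181), so 1 library decided these calls. Between 48 and 257 reads lay behind each Abcc4 value.

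Abcc1 (MRP1; chromosome 16, 14361558 to 14475737, plus strand), which exports leukotriene C4 and glutathione conjugates in many tissues, ranged from 0.230 to 0.612 FPKM over all libraries. Its differences from saline were -0.08 after cisplatin and -0.05 after doxorubicin (limma adjusted p = 0.624 and 0.661). Abcc5 (MRP5; chromosome 16, 20331303 to 20426394, minus strand), an exporter of cyclic nucleotides, had a high saline 2 at 4.87 FPKM, while the other saline libraries ran from 1.91 to 2.96. Its levels were 1.49 to 2.51 FPKM after cisplatin and 2.17 to 2.88 after doxorubicin. The differences of Abcc5 from saline were -0.24 after cisplatin (95% interval -0.58 to 0.10; limma adjusted p = 0.379) and -0.12 after doxorubicin (adjusted p = 0.616). Without saline 2 the cisplatin difference was -0.07 (limma adjusted p = 0.767), and the doxorubicin difference turned to 0.05 (adjusted p = 0.795).

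Other members of the ABC family changed in small number after cisplatin, near the share of all genes. Of 40 listed genes 29 were tested: 2 rose and 0 fell after cisplatin, and 6 rose and 8 fell after doxorubicin, with median differences of 0.01 and -0.18. Among all tested genes 6.08% rose and 5% fell after cisplatin, and 14.4% rose and 17.2% fell after doxorubicin. After doxorubicin the peptide transporters of antigen presentation rose, with Tap1 up by 1.12 ± 0.12 (limma adjusted p = 4.98e-06), from 9.31 ± 1.63 to 21.4 ± 2.86 FPKM, and Tap2 up by 0.40 ± 0.07 (adjusted p = 0.000715). Abca8a, a lipid transporter of the A subfamily, fell from 12.1 ± 2.06 to 5.26 ± 1.59 FPKM (-1.09 ± 0.16; adjusted p = 7.62e-05), and Abcd3, a peroxisomal fatty acid importer, from 114 ± 15.6 to 73.5 ± 20.3 FPKM (-0.66 ± 0.16; adjusted p = 0.0043).

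The next list held hepatic uptake carriers, the counterpart of the efflux pumps, together with other solute carriers of drugs. Of 19 tested, among 24 listed, 1 rose and 1 fell after cisplatin, and 2 rose and 9 fell after doxorubicin. The median differences were 0.02 and -0.42. Over all tested genes 6.08% rose and 5% fell after cisplatin, and 14.4% rose and 17.2% fell after doxorubicin. Slco1a4, an organic anion uptake carrier, fell by 2.65 on the log2 scale, from 50.5 ± 18.7 to 7.34 ± 3.31 FPKM (limma adjusted p = 1.44e-06). Slc10a1, the sodium-dependent bile acid carrier, went from 410 ± 70.7 to 172 ± 24.7 FPKM (-1.24 ± 0.14; adjusted p = 7.23e-06). Slc29a1, the equilibrative nucleoside transporter, fell after both drugs, by 0.60 after cisplatin (limma adjusted p = 0.0231) and by 1.18 after doxorubicin (adjusted p = 4.02e-05). Slc22a7, an organic anion carrier, rose after both, by 0.88 (limma adjusted p = 0.0117) and 1.15 (adjusted p = 0.000478).

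Regulators known to act on these transporter genes were counted in the same way. Of 20 listed and tested, 2 rose and 1 fell after cisplatin, and 1 rose and 4 fell after doxorubicin, with median differences of -0.12 and -0.21; over all tested genes 6.08% rose and 5% fell after cisplatin, and 14.4% rose and 17.2% fell after doxorubicin. Nfe2l2, which encodes the oxidant sensor partner NRF2, had means of 44.8 ± 14.1 (saline), 68.1 ± 16.5 (cisplatin) and 50.3 ± 3.64 FPKM (doxorubicin; SD, n = 5 each). It rose after cisplatin (0.61 ± 0.18; limma adjusted p = 0.0413). Hnf4a, a nuclear receptor of hepatocyte identity, fell after both drugs, by 0.34 (limma adjusted p = 0.0163) and 0.50 (adjusted p = 0.000352). Nr1i3, the xenobiotic receptor CAR, fell by 0.69 after doxorubicin (limma adjusted p = 0.0182). Foxo3, a forkhead factor, also fell by 0.53 there (limma adjusted p = 0.000182).

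NRF2 is a regulator of several efflux pumps, and glutathione is part of the conjugates they export. The list of NRF2 target and glutathione synthesis genes held 20, of which 19 were tested. Of these, 6 rose and 0 fell after cisplatin, and 12 rose and 1 fell after doxorubicin. The median differences were 0.23 and 0.45. Over all tested genes 6.08% rose and 5% fell after cisplatin, and 14.4% rose and 17.2% fell after doxorubicin. Ephx1, the microsomal epoxide hydrolase, went from 282 ± 38.0 to 588 ± 18.9 FPKM after cisplatin and 719 ± 126 after doxorubicin (limma adjusted p = 2.66e-05 and 6.32e-07). Gstm1, a glutathione S-transferase, went from 1323 ± 327 to 3253 ± 770 FPKM after doxorubicin (adjusted p = 3.9e-05). Gclc, the catalytic subunit of glutamate-cysteine ligase, rose by 0.72 ± 0.13 after cisplatin (limma adjusted p = 0.00203), and Me1, a malic enzyme that makes NADPH, fell by 0.60 after doxorubicin (adjusted p = 0.0169). Reads of near-identical glutathione S-transferase genes cannot be assigned with certainty.

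Tested target genes of the xenobiotic receptors CAR and PXR numbered 15. Of these, 1 rose and 3 fell after cisplatin, and 1 rose and 5 fell after doxorubicin. The median differences were -0.40 and -0.60. The 3 that fell after cisplatin included Gadd45b, which encodes no enzyme. It was at 14.8 ± 10 FPKM with saline and 3.44 ± 0.898 with cisplatin (SD, n = 5 each). The shares of all tested genes that rose and fell were 6.08% and 5% after cisplatin, and 14.4% and 17.2% after doxorubicin. Cyp3a11, a drug-metabolizing cytochrome, fell after both drugs, by 0.57 (limma adjusted p = 0.0433) and 0.99 (adjusted p = 0.000399), whereas Cyp3a13 rose after doxorubicin by 0.99 ± 0.17 (adjusted p = 0.000281). Sult2a8, a bile acid sulfotransferase in mouse, fell by 1.33 after doxorubicin (limma adjusted p = 3.21e-06).

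The last list held genes that build and anchor the canalicular membrane, where Abcc2 and P-glycoprotein reside. Of 19 listed and tested, 2 rose and 0 fell after cisplatin, and 5 rose and 2 fell after doxorubicin, with median differences of 0.08 and 0.05. The shares over all tested genes were 6.08% and 5% after cisplatin, and 14.4% and 17.2% after doxorubicin. Slc9a3r1, the scaffold EBP50 that binds the tail of Abcc2, rose from 86.2 ± 13.4 to 127 ± 12.6 FPKM after cisplatin and 154 ± 17.7 after doxorubicin (limma adjusted p = 0.00449 and 4.37e-05). Atp8b1, a phospholipid flippase, rose after both drugs, by 0.63 ± 0.09 (limma adjusted p = 0.000427) and 0.43 ± 0.09 (adjusted p = 0.00241). Ceacam1, a canalicular adhesion protein, fell by 0.54 after doxorubicin (limma adjusted p = 0.000148).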

How the data were processed

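The submitters' processing notes name Trim Galore 0.4.1, HISAT2 2.0.1, featureCounts 1.4.6 and edgeR (version not given) as the authors' tools, and GRCm38 (mm10) as the build. The annotation release and strand setting are not given in the sources used here. The deposited table holds FPKM in 15 columns, used without further scaling, and 0 columns were left out.

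Differences came from limma 3.58.1 (R 4.3.3, eBayes with trend and robust settings, 3 groups) on log2(FPKM + 1). It covered genes of at least 1 FPKM in at least 5 libraries or, for the 4 low transporter genes, all genes above 0. P-values were two-sided with Benjamini-Hochberg adjustment over all genes of the fit at 0.05. They set each group difference against the estimated spread between mice. The 27 exact permutation tests (two-sided) are unadjusted. Read totals and reads per gene were recovered from the steps of low FPKM values. Alternatives were pseudocounts, filters, scalings, fits of 2 groups, a replicate block, a stricter threshold and leaving out each library. The fit was tested on simulated data.

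The transporter genes and lists were chosen with earlier results of these data known. Named were all 9 genes, up to 3 changed genes per list, direction and comparison, leading cell markers and nearest patterns. Not all of these are printed, and some results are not reported here. Python 3.11.15, numpy 2.4.6, pandas 2.3.3, scipy 1.17.1 and matplotlib 3.10.9 were used.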

Additional observations from a re-analysis of the deposited data

Results flagged for a closer look

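Among 27 groups of 5 values (9 transporter genes in 3 groups), 1 held a library whose gap to the others passed Dixon's 95% critical value for groups of 5. Abcc2 in saline 5 was at 157 FPKM, and its gap to the next saline library made up 0.768 of the range of the group. Chance alone flags about 1 in 20 such groups.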

How the results depend on the processing

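The number of transporter genes that fell after cisplatin was 0, and 1 (Abcc3) with only the 2 groups compared in the fit and 0 to 1 when 1 library was left out. The number that rose after doxorubicin was 0, and 1 (Abcb1b) with no filter. The number that fell after doxorubicin was 2, and 1 at an adjusted p of 0.01, 1 to 2 when 1 library was left out, and 1 with the replicate number as a block. The replicate numbers did not pair the libraries: 2 of 13 pairs with the same number correlated above 0.1 (range -0.553 to 0.352), 0 of 14 libraries correlated best with their own number, and the unnumbered doxorubicin library stayed out of that fit. With the block, Abcc6 after doxorubicin gave an adjusted p of 0.115 in limma. Counts over all genes, in the order cisplatin against saline, doxorubicin against saline and doxorubicin against cisplatin, were 1170, 3335 and 2151, and became 792, 2168 and 1262 with the block and 482, 2034 and 1160 at an adjusted p of 0.01; the first was 720 without cisplatin 3. The causes of these shifts were not tested.

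Differences that changed sign never passed the threshold in either setting. With the block the Abcc1 difference between doxorubicin and cisplatin was -0.0163. With median-ratio scaling, doxorubicin against saline was 0.0272 for Abcc2 and 0.0145 for Abcg2, and cisplatin against saline was 0.00806 for Abcc4, which was 0.00462 with a pseudocount of 0.1 and 0.000174 with 0.5. Leaving out 1 library gave ranges of -0.0164 to 0.0767 (Abcc1, doxorubicin against cisplatin), -0.0846 to 0.127, -0.0645 to 0.0489 and -0.15 to 0.0615 (Abcc2 in the order above), -0.0323 to 0.0366 (Abcc4, cisplatin against saline) and -0.205 to 0.0481 (Abcc5, doxorubicin against saline). Of the other values for single genes, 616 kept direction and side of the threshold, 9 gained a call and 5 lost one. Many of the values that kept both were bound to keep direction or side. Leaving out a library of the group not compared keeps the difference itself and alters only its estimated spread. The stricter threshold cannot add a call. The falls of Abcc3 after doxorubicin held in 15 of 15 fits that left out 1 library. Depth limits the genes below 1 FPKM most: saline values of Abcb1b rest on 8 to 39 reads.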
